A study of Mus musculus with 21 samples.

Results

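Wild-type primary mouse hepatocytes, liver cells taken from the animal and kept in culture, were compared between 2 uM of TTR-1236 and PBS. TTR-1236 is an agent that the submitters describe as RNAi directed against Ttr, and PBS is the vehicle. The comparison used the 3 libraries labelled TTR-1236 at 2 uM and the 3 labelled PBS, which are 6 of the 21 libraries of the series, and all 9657 genes in the files. RNA of both groups was taken on Day 1. The other libraries, which received 0.2 uM of TTR-1236 or either dose of TTR-1186 or Reference 4, entered the estimate of spread, and those of TTR-1236 at 0.2 uM and of the other agents at 2 uM were also compared directly. No label states whether replicate libraries stem from separate animals or cultures, and p-values therefore describe the spread among these libraries alone, which may be technical. The cells carried hepatocyte markers. Of 9 such markers 8 were measured, and those other than Ttr summed to 17064, 17068 and 15034 CPM under TTR-1236 at 2 uM and to 15529, 14177 and 17203 CPM under PBS. Markers of Kupffer cells, sinusoidal endothelium, stellate cells and cholangiocytes were few, with 2 of 11, 2 of 10, 2 of 11 and 4 of 8 in the files, and of these 0 passed the test. Their summed levels in CPM, under TTR-1236 and then under PBS, were 102 to 157 and 79.6 to 101 for Kupffer cells, 12.1 to 18.4 and 18.5 to 19.6 for endothelium, 22.9 to 23.3 and 9.91 to 25.1 for stellate cells, and 165 to 176 and 184 to 221 for cholangiocytes. Their part in the results was not tested. Of 9 lymphocyte and neutrophil markers 0 were in the files.

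RNA interference uses a short guide strand, loaded on an Argonaute protein, to cut or silence a messenger RNA that pairs with it. Ttr encodes transthyretin, the carrier of thyroid hormone and of retinol-binding protein that hepatocytes secrete. Hepatocyte messenger RNA is dominated by short, abundant transcripts of ribosomal, mitochondrial and secreted proteins, whereas regulators of chromatin, transcription, trafficking and ubiquitin signalling are mostly encoded by long, scarcer transcripts. The assay, QuantSeq, reads the 3′ end of polyadenylated RNA, so that a transcript gives about the same number of reads whatever its length. Values are CPM, the reads of a gene as a share of the reads of its library over the genes in the files, scaled to a common total. Log2 fold changes are TTR-1236 at 2 uM over PBS on the scale of log2(CPM + 1), which understates the change of scarce genes, and are given ± their standard error from limma. Rose and fell are used for genes whose Benjamini-Hochberg adjusted p from limma, over all genes, was under 0.05. In bulk RNA, fewer cells of a type and less RNA per cell cannot be told apart.

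The libraries held 17753868, 33815658 and 21357237 reads under TTR-1236 at 2 uM and 14324315, 19109736 and 26340870 under PBS. PBS replicate 3 stood apart from the other PBS libraries. The chi-square per degree of freedom between its reads and those of PBS replicates 1 and 2 was 184 and 176, against 40.1 between replicates 1 and 2. Mitochondrial ribosomal RNA took 0.487%, 0.471% and 0.278% of the CPM in the TTR-1236 libraries and 3.26%, 2.70% and 0.797% in the PBS libraries, so that the groups did not overlap but PBS replicate 3 lay between the other PBS libraries and the treated ones. It lay there in the share of long and of short protein-coding transcripts as well. Protein-coding genes with a longest spliced transcript of 5 kb and over took 5.88%, 5.74% and 5.59% of the CPM under TTR-1236 and 8.58%, 8.40% and 6.49% under PBS. Those under 2 kb took 52.3%, 52.1% and 52.5% under TTR-1236 and 45.5%, 46.2% and 51.9% under PBS. What sets PBS replicate 3 apart was not tested, and results are given with and without it where it decides them.

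**Figure D1:**
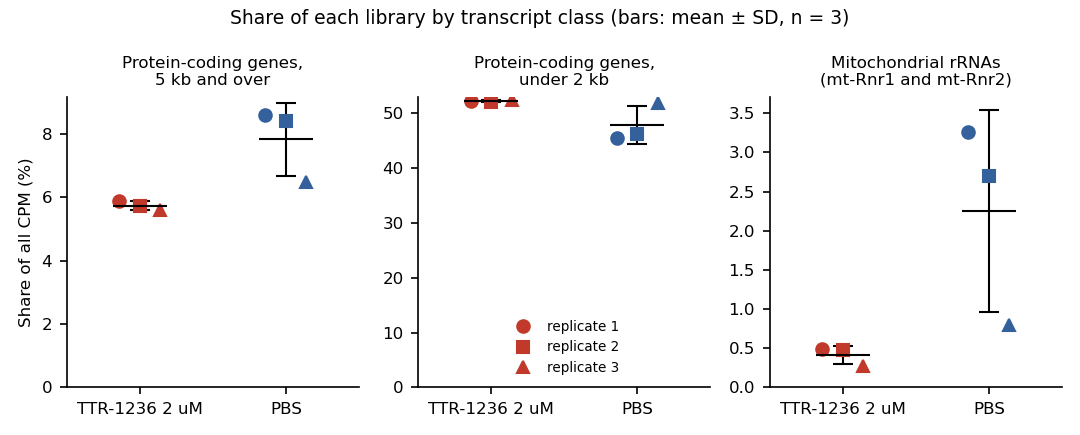
Share of all CPM (%) taken by protein-coding genes with transcripts of 5 kb and over, by those under 2 kb and by the mitochondrial ribosomal RNAs, for the 3 libraries of TTR-1236 at 2 uM (red) and of PBS (blue), with the mean and SD of each group. The long share is 5.59% to 5.88% in the treated libraries and 6.49% to 8.58% in PBS, with PBS replicate 3 (triangle) nearest to the treated ones.

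Ttr, the gene the agent is directed against, was at 14.9, 17.3 and 7.77 CPM under TTR-1236 at 2 uM and at 2272, 2168 and 2336 CPM under PBS. Every treated library was far below every PBS library, and the treated mean of 13.3 ± 4.95 CPM was 0.590% of the PBS mean of 2258 ± 84.7 CPM (SD, n = 3 each). The fall of 7.37 on the log2 scale (standard error 0.42, adjusted p = 1.95e-10 in limma) was the largest of any named gene and held whichever library was left out.

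Of the 9657 genes 611 passed the test (6.33%). The rises numbered 139 (1.44%), of which 47 reached 2-fold, and the falls 472 (4.89%), of which 346 reached 2-fold. The treated and PBS values of 1838 genes did not overlap (19%), and among them were 121 of the genes that rose and 408 of those that fell. The counts turned on single libraries and on the pooled spread. Without PBS replicate 3, 383 rose (3.97%) and 1205 fell (12.5%), 16.4% in all, and 587 of the 611 genes were among them. Without PBS replicate 1 the counts were 12 and 37, without PBS replicate 2 they were 14 and 32, and without TTR-1236 replicates 2 and 3 they were 31 and 175, and 6 and 57. When the spread came from the 6 libraries alone, 1 gene rose (0.0104%) and 21 fell (0.217%), 0.228% in all. On the reads recovered from the CPM, edgeR called 192 rises (1.99%) and 470 falls (4.87%), 6.86% in all, and DESeq2 368 rises (3.81%) and 688 falls (7.12%), 10.9% in all. Scaling moved the balance of rises and falls. Rises were 22.7% of the calls with CPM as deposited and 34.4% with DESeq2 size factors, where 221 rose and 422 fell, and the median log2 fold change of all genes was -0.07 and 0.02 in these 2 analyses.

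The calls of 30 genes held whichever of the 6 libraries was left out. Of these 5 rose and 25 fell, and 5 are predicted genes that are only counted here. Of the 30, 22 are protein-coding, and 11 of those have transcripts of 5 kb and over. Jak1, a kinase that relays cytokine signals, was at 153, 121 and 122 CPM under TTR-1236 and at 297, 309.5 and 256 CPM under PBS (-1.12 ± 0.13, adjusted p = 7.00e-05 in limma). Its exons overlap those of Raver2. Dync1h1, the heavy chain of cytoplasmic dynein, was at 245, 158 and 192 CPM under TTR-1236 and at 559, 447 and 445 CPM under PBS (-1.30 ± 0.19, adjusted p = 0.00164). In both genes PBS replicate 3 was the lowest of the PBS libraries, and it was still above every treated library. Haptoglobin, Hp, which binds free haemoglobin, was at 3807, 2285 and 2478 CPM under TTR-1236 and at 5431, 4772 and 5166 CPM under PBS (-0.88 ± 0.15, adjusted p = 0.00421). Ceruloplasmin, Cp, the copper-carrying ferroxidase of plasma, was at 1403, 1247 and 1039 CPM under TTR-1236 and at 2969, 3273 and 1741 CPM under PBS (-1.07 ± 0.19, adjusted p = 0.00451). Prothymosin alpha, Ptma, a small acidic nuclear protein, was at 221, 190.2 and 174 CPM under TTR-1236 and at 459, 482 and 344 CPM under PBS (-1.12 ± 0.19, adjusted p = 0.00421). In each of these 5 genes every treated library was below every PBS library. The others with a name included Resf1, a silencer of retroelements, at 4.84, 6.09 and 6.46 CPM under TTR-1236 and 47.8, 50.6 and 21.6 CPM under PBS, and Map3k1, a kinase upstream of JNK, at 12.8, 7.30 and 5.10 CPM under TTR-1236 and 50.6, 40.3 and 21.8 CPM under PBS. Ino80d, Fndc3b, Rbm28 and Zfp865 fell by 2.44, 1.36, 1.82 and 1.69 on the log2 scale.

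Among the rises, Gipc1, a PDZ-domain adaptor of vesicle trafficking, was at 24.4, 39.1 and 30.2 CPM under TTR-1236 and at 5.58, 8.90 and 8.81 CPM under PBS (1.88 ± 0.30, adjusted p = 0.00210 in limma). Every treated library was above 24 CPM and every PBS library below 9 CPM. The other stable rises with a name were RPS10-NUDT3, a readthrough of the Rps10 and Nudt3 genes that overlaps both, at 478, 588 and 622 CPM under TTR-1236 and 309.7, 336 and 345 CPM under PBS, and the pseudogene Rpl10-ps6. Ppp2r5b, a regulatory subunit of protein phosphatase 2A, and Gpha2, a glycoprotein hormone subunit, overlap on chromosome 19 and fell together (-1.33 and -1.36). Without a stated strand setting, reads of such overlapping pairs cannot be assigned with certainty. This holds too for Marf1 with Nde1 and for Dkc1, the pseudouridine synthase of ribosomal and telomerase RNA, with Mpp1.

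**Figure D2:**
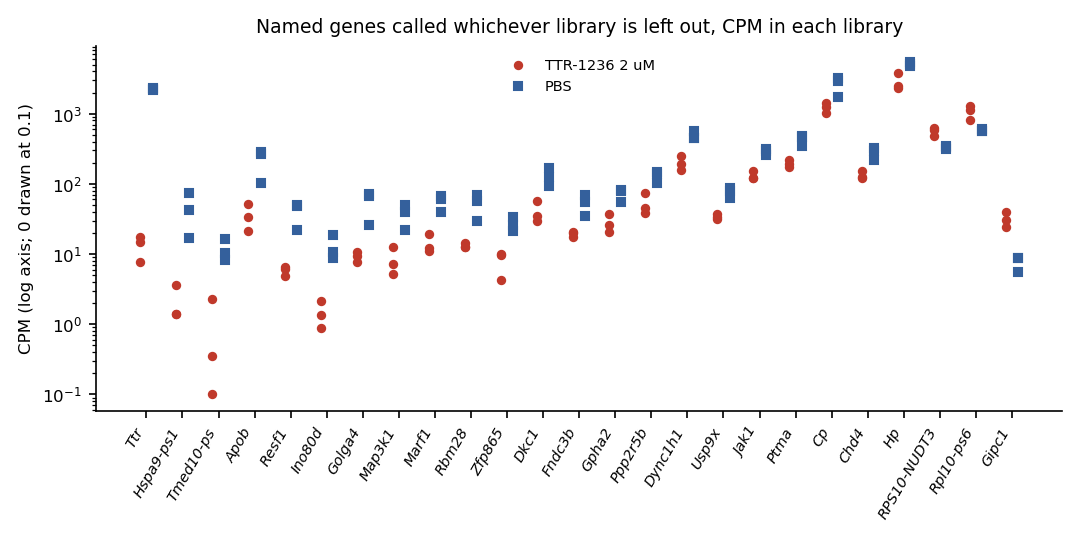
CPM (log axis, 0 drawn at 0.1) in each library for the 25 named genes that passed whichever library was left out, ordered by log2 fold change, with TTR-1236 at 2 uM as red circles left of PBS as blue squares. Ttr has the widest gap, the next genes differ mostly by 2-fold to 10-fold, and RPS10-NUDT3, Rpl10-ps6 and Gipc1 at the right are higher under TTR-1236.

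The direction of change followed transcript length among the 8584 protein-coding genes. Of 1763 genes with a transcript of 5 kb and over, 1 rose and 216 fell (12.3%), and 19.2% of them had a positive fold change. Of 4445 genes between 2 and 5 kb 27 rose and 147 fell (3.31%). Of 2376 genes under 2 kb 68 rose (2.86%) and 19 fell (0.800%), and 63.8% had a positive fold change. The median log2 fold change was -0.42 in the long class, -0.07 in the middle class and 0.12 in the short class, against -0.07 over all genes. Over 10 length deciles the median declined at every step, from 0.18 in the shortest to -0.54 in the longest, where 0 of 859 genes rose and 139 fell (16.2%). Without PBS replicate 3 the medians of the shortest and longest deciles were 0.22 and -0.72. They were 0.15 and -0.46 without PBS replicate 1, and 0.16 and -0.49 without PBS replicate 2. The number of long genes that fell depended more on single libraries. It was 492 without PBS replicate 3, 16 without PBS replicate 1, 16 without PBS replicate 2 and 7 with the 6 libraries alone. The median of long genes was negative at every level of expression. Among long genes with a mean under 10 CPM, 10 to 30, 30 to 100 and over 100 CPM the median was -0.39, -0.44, -0.43 and -0.37.

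**Figure D3:**
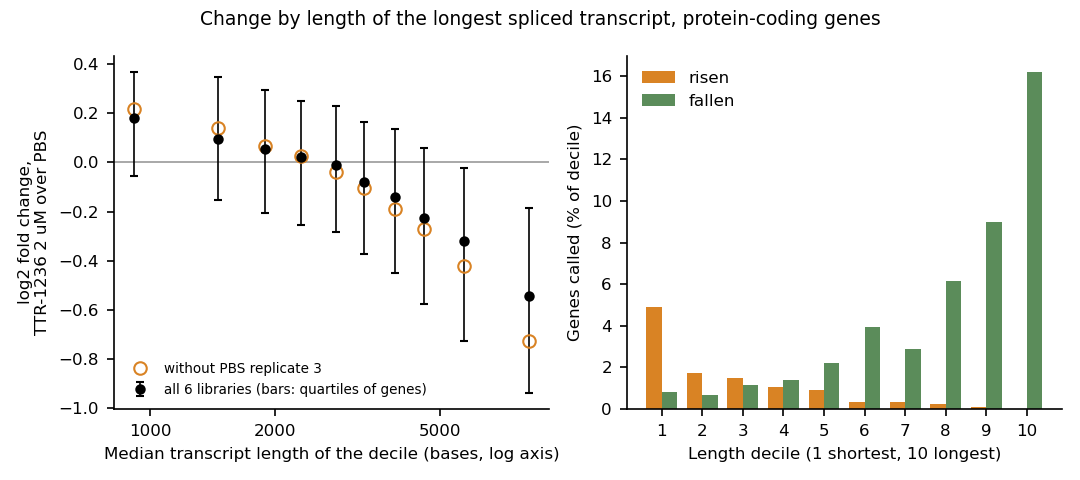
Left, median log2 fold change (TTR-1236 at 2 uM over PBS) of protein-coding genes in 10 deciles of transcript length against the median length of the decile (bases, log axis), with quartiles of genes as bars and medians without PBS replicate 3 as open circles. Right, percent of each decile that rose or fell; the shortest decile has 4.89% risen and 0.815% fallen, the longest 0% and 16.2%.

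Protein-coding genes that fell had a median transcript of 5551 bases, a coding sequence of 2457 bases, a 3′ untranslated part of 2012 bases and 16 exons. Those that rose had 1348 bases, 646.5 bases, 313 bases and 5 exons, and those that passed in neither direction 2981 bases, 1266 bases, 1114.5 bases and 9 exons. GC content of the transcript was 46.0% in genes that fell, 54.0% in those that rose and 50.5% in the rest. A run of at least 8 A, where an oligo-dT primer could anneal inside a transcript, was present in 56.5% of genes that fell, in 13.5% of those that rose and in 27.8% of the rest. Within the long class 135 of 999 genes with such a run fell (13.5%) and 81 of 764 without one (10.6%), with medians of -0.49 and -0.34. Between 2 and 5 kb 78 of 1251 genes with a run fell (6.24%) and 69 of 3194 without one (2.16%), with medians of -0.18 and -0.04. Under 2 kb 3 of 230 (1.30%) and 16 of 2146 (0.746%) fell, with medians of 0.02 and 0.13. The part of such runs in the changes was not tested. The long gene that rose was Uvrag, a subunit of the lipid kinase complex of autophagy and endosome traffic, with a longest transcript of 5157 bases. It was at 10.3, 18.4 and 17.5 CPM under TTR-1236 and at 7.89, 4.71 and 5.20 CPM under PBS (1.23 ± 0.33, adjusted p = 0.0291 in limma), and passed in 2 of the 6 leave-one-out fits.

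Chromatin regulators had the lowest median of the gene lists with at least 15 measured members. Of 66 members 0 rose and 22 fell, 63 were lower, and their median was -0.89, or -0.34 relative to protein-coding genes of like length. Their summed level was 1792, 1587 and 1508 CPM under TTR-1236 and 3675, 3411 and 2073 CPM under PBS. Of the 60 members of 5 kb and over 22 fell (36.7%), beside 12.3% of all long genes. The list had 2 falls without PBS replicate 2, 3 without PBS replicate 1 and 4 without TTR-1236 replicate 3. It had 38 without PBS replicate 3 and 1 with the 6 libraries alone. Only 1 member passed whichever library was left out, and the median was -1.23 to -0.66 in those fits. Chd4, the ATPase of the NuRD remodelling complex, was at 151, 121 and 123.4 CPM under TTR-1236 and at 325, 292 and 216 CPM under PBS (-1.06 ± 0.19, adjusted p = 0.00472 in limma), and passed whichever library was left out. Kdm5a, a demethylase of histone H3 lysine marks at active promoters, was at 19.3, 14.8 and 8.76 CPM under TTR-1236 and at 43.6, 69.2 and 29.1 CPM under PBS (-1.64 ± 0.30, adjusted p = 0.00501). Baz2b, a bromodomain protein, fell to 5.12 ± 1.93 CPM under TTR-1236, against 26.8 ± 18.5 CPM under PBS (SD, n = 3 each), a spread set by 46.9 CPM in PBS replicate 1 and 10.4 CPM in PBS replicate 3. The remodeller subunits Smarcc1, Smarca2 and Arid1a, the histone methyltransferases Setd2, Nsd1, Nsd3 and Ash1l and the DNA methyltransferase Dnmt3a were among the other falls, which lay between -2.28 and -0.70.

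Transcription factors of the liver fell in part. Of 21 hepatocyte transcription factors 0 rose and 4 fell (19.0%, beside 4.89% of all genes), with a median of -0.26 (-0.07 at like length). The 4 were the nuclear factor I genes Nfia, Nfib and Nfic, which shape liver and other tissue programmes, and Zbtb20, a zinc finger repressor of fetal liver genes. Nfic was at 114, 103 and 99.3 CPM under TTR-1236 and at 348, 275 and 142 CPM under PBS (-1.17 ± 0.22, adjusted p = 0.00569 in limma). Nfib was at 49.2, 56.8 and 54.5 CPM under TTR-1236 and at 122, 113 and 91.8 CPM under PBS, a narrow range within each group. Of 16 nuclear receptors 3 fell (18.75%) and 14 were lower, with a median of -0.79 (-0.53 at like length). The falls were Nr5a2, a receptor of bile acid and cholesterol genes, at 7.76 ± 3.46 CPM under TTR-1236 and 18.8 ± 4.15 CPM under PBS, the clock-linked receptor Rora at 49.8 ± 6.65 CPM under TTR-1236 and 105 ± 40.7 CPM under PBS, and the glucocorticoid receptor gene Nr3c1 at 6.88 ± 1.98 CPM under TTR-1236 and 22.1 ± 9.57 CPM under PBS (SD, n = 3 each). Of 114 genes of the Zfp zinc finger family 0 rose and 7 fell (6.14%, beside 4.89% of all genes), all between -2.11 and -1.12, and the median was -0.31. Nr3c1 passed in 1, Rora in 2 and Nr5a2 in 3 of the 6 leave-one-out fits.

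Ubiquitin ligases and deubiquitinases, most of them very large proteins, had 0 rises and 8 falls among 62 members (12.9%, beside 4.89% of all genes). Their median was -0.36 (-0.07 at like length). All 8 falls were among the 37 members of 5 kb and over (21.6%, beside 12.3% of all long genes). Usp9x, a deubiquitinase that stabilises many signalling proteins, was at 31.9, 36.7 and 34.2 CPM under TTR-1236 and at 86.3, 80.2 and 63.0 CPM under PBS (-1.13 ± 0.19, adjusted p = 0.00421 in limma), and passed whichever library was left out. Trip12 and Nedd4, ligases of the HECT family, fell by 1.24 and 1.66 on the log2 scale. Proteasome subunits, encoded by short transcripts, had a median of -0.01, and Psmd4, an ubiquitin receptor of the proteasome, was the member of 36 that fell (-0.94).

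Among motor and membrane trafficking genes the falls were in the long members. Of 32 kinesins, dynein heavy chains and myosins 0 rose and 7 fell (21.9%, beside 4.89% of all genes), with a median of -0.35. All 7 were among the 23 members of 5 kb and over (30.4%, beside 12.3% of all long genes). Relative to genes of like length the median of the list was 0.02. Besides Dync1h1 these included the kinesins Kif5b (105 ± 19.5 CPM under TTR-1236 and 227 ± 65.5 CPM under PBS, SD, n = 3 each), Kif3b, Kif21a and Kif13b. Of 74 golgins, tethers and VPS13 proteins 6 fell (8.11%, beside 4.89% of all genes) and 0 rose. All 6 were among the 20 members of 5 kb and over (30%, beside 12.3% of all long genes). Golga4, a golgin of the trans-Golgi that captures vesicles, was at 10.6, 9.32 and 7.73 CPM under TTR-1236 and at 72.1, 67.9 and 26.1 CPM under PBS (-2.34 ± 0.41, adjusted p = 0.00448 in limma). Eea1, the tether of early endosomes, was at 10.6 ± 2.75 CPM under TTR-1236 and 57.8 ± 32.1 CPM under PBS (SD, n = 3 each). The 10 short members of this list had a positive median of 0.16.

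In insulin, IGF and growth hormone signalling, Jak1, the kinase gene Gsk3b and Pik3r1, the regulatory subunit of PI3 kinase, fell and 0 of 33 members rose. These falls were 9.09% of the list, beside 4.89% of all genes, and the median was -0.32 (-0.05 at like length). Among its 20 members of 5 kb and over 2 fell (10%, beside 12.3% of all long genes). Gsk3b was at 37.2, 29.0 and 26.5 CPM under TTR-1236 and at 115, 95.1 and 41.6 CPM under PBS. Among RNAi and microRNA genes, which act in the same pathway as the agent, 4 of 31 fell and 0 rose. The falls were 12.9% of the list, beside 4.89% of all genes, and the median was -0.25 (-0.04 at like length). Of the 17 members of 5 kb and over 3 fell (17.6%, beside 12.3% of all long genes). The 4 that fell were Pabpc1, the cytoplasmic poly(A)-binding protein, Tut4, which adds uridines to RNA ends, the helicase gene Ddx6 and the deadenylase gene Cnot6. Pabpc1 was at 324, 340.5 and 247 CPM under TTR-1236 and at 1174, 1247 and 528 CPM under PBS (-1.61 ± 0.30, adjusted p = 0.00909 in limma), and passed in 3 of the 6 leave-one-out fits. Interferon genes and RNA sensors went both ways, with 2.08% risen and 8.33% fallen, beside 1.44% and 4.89% of all genes. Of 48 members 4 fell, among them the RNA sensor gene Ddx58 at 15.7, 31.8 and 25.1 CPM under TTR-1236 and 59.5, 61.5 and 43.8 CPM under PBS, and Parp14, an ADP-ribosyltransferase (-1.28). Zbp1, a sensor of Z-form nucleic acid, was low, at 7.94, 6.89 and 9.88 CPM under TTR-1236 and 0.908, 2.93 and 2.85 CPM under PBS, rose (1.58 ± 0.45, adjusted p = 0.0400 in limma) and passed in 1 of the leave-one-out fits.

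Splicing factors had 1 rise and 11 falls among 96 members (1.04% and 11.5%, beside 1.44% and 4.89% of all genes). Their median was -0.18 (-0.12 at like length), and the falls were more frequent among long members. Of 18 members of 5 kb and over 5 fell (27.8%, beside 12.3% of all long genes), and the median of the 31 short members was -0.03. Srrm2, a scaffold of nuclear speckles, was at 208, 176 and 146 CPM under TTR-1236 and at 424, 386 and 289 CPM under PBS, and the kinase gene Prpf4b at 47.1, 36.7 and 48.9 CPM under TTR-1236 and 101, 102 and 72.9 CPM under PBS. The rise was U2af1l4, a small relative of the 3′ splice site factor U2AF, at 24.1, 14.2 and 18.1 CPM under TTR-1236 and 3.42, 6.07 and 11.05 CPM under PBS. Initiation and elongation factors also divided by length. Eif3a, Eif4g1 and Eif5b, large subunits and scaffolds of translation initiation, fell, with Eif4g1 at 300.3, 257 and 221 CPM under TTR-1236 and 658, 616 and 388 CPM under PBS (-1.07 ± 0.20, adjusted p = 0.00529 in limma). Eif1 and Eef1g, from short transcripts, rose by 0.43 and 0.49. Of the 61 members 3.28% rose and 4.92% fell, beside 1.44% and 4.89% of all genes. Their median was -0.01, and 0.06 with TMM factors.

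Lipid and stress genes that fell were few. Apob, the scaffold protein of very low density lipoprotein, has a transcript of 13934 bases and was at 51.8, 33.4 and 21.6 CPM under TTR-1236 and 283, 269.9 and 102 CPM under PBS (-2.53 ± 0.44, adjusted p = 0.00633 in limma). Apoc3, a short apolipoprotein gene that slows triglyceride clearance, rose to 1581, 1848 and 1631 CPM under TTR-1236, against 845, 865 and 1275 CPM under PBS (0.78 ± 0.17, adjusted p = 0.0141). The other 25 measured members of the apolipoprotein and lipoprotein assembly list passed in neither direction. In cholesterol synthesis and uptake 3 of 28 members fell (10.7%, beside 4.89% of all genes) and 0 rose. They were Srebf2, the transcription factor that switches the pathway on, at 21.1, 19.99 and 13.3 CPM under TTR-1236 and 58.6, 56.4 and 31.1 CPM under PBS, and the enzyme genes Hmgcs1 (-0.64) and Mvd (-1.002). Hspa5, the main chaperone of the endoplasmic reticulum, fell (-0.69), as did Atf5, a stress-responsive transcription factor (-1.021). The cytosolic chaperone gene Hsp90ab1 was at 1719.5, 1268 and 1276 CPM under TTR-1236 and 4029, 3078 and 1571 CPM under PBS, and without PBS replicate 3 its change was -1.32 in place of -0.94.

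Of the 96 protein-coding genes that rose 68 have transcripts under 2 kb, 27 between 2 and 5 kb and 1 of 5 kb and over. Respiratory chain and ATP synthase subunits encoded in the nucleus, the inner-membrane machinery that makes ATP, had 8 rises and 0 falls among 75 members, 69 were higher, and the median was 0.32 (0.18 at like length). Their summed level was 16627, 17296 and 18671 CPM under TTR-1236 and 13171, 13628 and 15881 CPM under PBS, without overlap. Of 67 short members 8 rose (11.9%), beside 2.86% of all short genes. Without PBS replicate 1, PBS replicate 2 or TTR-1236 replicate 3, 0 of the 75 rose, and without PBS replicate 3, 18 did. The median of the list was 0.24 to 0.38 with 1 library left out. Cox8a, a subunit of cytochrome c oxidase, was at 528, 611 and 604 CPM under TTR-1236 and at 327, 375 and 459 CPM under PBS (0.60 ± 0.13, adjusted p = 0.0141 in limma). Cox6b1, Cox6a1 and Cox5b of the same complex, Cox7a2l, Uqcr10 of the cytochrome bc1 complex and the ATP synthase genes Atp5l and Atp5j2 rose by 0.45 to 0.60 like it. The 13 mRNAs encoded by mitochondrial DNA, subunits of the same complexes, had 0 rises and 0 falls and a median of 0.07, with mt-Nd5 at 393, 497 and 379.6 CPM under TTR-1236 and 1253, 857 and 409 CPM under PBS (adjusted p = 0.0920).

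Cytosolic ribosomal protein genes had 6 rises (7.41%, beside 1.44% of all genes) and 0 falls among 81 members. Of the 81, 72 were higher, and the median of 0.20 was 0.05 above that of genes of like length. Their summed level was 98910, 97168 and 102897 CPM under TTR-1236 and 82302, 82137 and 92973 CPM under PBS. Rpl12, a protein of the large subunit, was at 863, 1018 and 1150.4 CPM under TTR-1236 and at 764, 737 and 623 CPM under PBS (0.51 ± 0.12, adjusted p = 0.0199 in limma). Every treated library was above every PBS library. Its exons overlap those of Lrsam1. Rpl10, Rpl41 and Rps18 rose by 0.47 to 0.53. Each of the 6 passed in 1 to 3 of the 6 leave-one-out fits, and without PBS replicate 3, 12 members rose. Mitochondrial ribosomal protein genes had a median of 0.17 with 1 rise, Mrpl54 (0.68), and 0 falls among 75 members.

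Messenger RNAs of ribosomal proteins are known to begin with a run of pyrimidines that couples their translation to growth signals. The motifs CTTTT and CTTCC were searched on the sense strand in 40 bases, 20 on either side of the annotated start, in RefSeq promoters of GRCm38.p6. At least 1 of them was present in 22 of 60 ribosomal protein promoters (36.7%), 18 of 61 respiratory chain promoters (29.5%), 5 of 47 chromatin regulator promoters (10.6%) and 994 of 6790 promoters of all measured protein-coding genes (14.6%). On either strand the shares were 53.3%, 41.0%, 23.4% and 28.6%. The last base of CTTCC can be the first of a following motif, and a match is a description of these letters only. Windows of 2 ribosomal protein genes that rose are shown, with the motifs in capitals, the start site after the first 20 bases, and positions on chr2:32961692-32961731 (plus strand) and chr17:33955646-33955685 (minus strand).
Rpl12: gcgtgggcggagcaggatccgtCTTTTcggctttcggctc
Rps18: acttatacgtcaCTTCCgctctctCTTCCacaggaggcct

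In carbohydrate and drug metabolism a few enzymes rose. Of 35 genes of glycolysis, gluconeogenesis and glycogen 4 rose (11.4%) and 1 fell (2.86%), beside 1.44% and 4.89% of all genes. In this list 14 were lower, and the median was 0.20, or 0.27 relative to genes of like length. When PBS replicate 1, PBS replicate 2 or TTR-1236 replicate 3 was left out, 0 of the 35 passed. Without PBS replicate 3, 8 rose and 1 fell. Pgk1, a glycolytic kinase, was at 759.6, 916 and 948 CPM under TTR-1236 and at 581, 617 and 563 CPM under PBS (0.57 ± 0.13, adjusted p = 0.0172 in limma). Eno1, enolase, was at 579, 973 and 892 CPM under TTR-1236 and at 474, 514 and 541 CPM under PBS, and Tkfc, a kinase of fructose metabolism, rose by 0.88. Gapdh also passed (0.90), although its lowest treated library, at 179.6 CPM, was below its highest PBS library, at 202 CPM. Cyp3a11 and Cyp3a13, drug-oxidising cytochromes P450 of the liver, were the 2 of 37 P450 genes that rose (5.41%), and neither is among the 20 members under 2 kb. Cyp3a11 was at 226, 374 and 353 CPM under TTR-1236 and at 183, 209.6 and 169 CPM under PBS (0.73 ± 0.18, adjusted p = 0.0227), and passed in 2 of the 6 leave-one-out fits. Uox, the enzyme that degrades urate in rodents, was at 61.3, 83.2 and 87.4 CPM under TTR-1236 and at 32.1, 30.6 and 46.6 CPM under PBS. Of 51 genes of glutathione metabolism and NRF2 targets 3 rose (5.88%) and 2 fell (3.92%), 25 were lower, and the median was 0.02. The rises were the glutathione transferases Gstk1 (1.14), Gstp3 (1.05) and Gsto1 (0.73), and the falls Tkt, the transketolase of the pentose phosphate pathway (-0.82), and Abcc2, an exporter of conjugates into bile (-0.89). Of 38 conjugating enzymes 0 passed in either direction and 16 were lower. Gcdh, a dehydrogenase of lysine breakdown, rose (0.85).

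Plasma and metal-binding proteins were divided. Metallothionein Mt1, a zinc and copper store, was at 6129.8, 8148 and 7903 CPM under TTR-1236 and at 4416, 4391 and 5039 CPM under PBS (0.67 ± 0.15, adjusted p = 0.0158 in limma). Ftl1, the ferritin light chain, was at 4703, 5240.5 and 5449 CPM under TTR-1236 and at 2980.5, 3175 and 3925 CPM under PBS (0.62 ± 0.12, adjusted p = 0.00814). Hfe, which restrains iron uptake, rose by 1.25. Of 29 acute phase genes 3 rose (10.3%) and 2 fell (6.90%), beside 1.44% and 4.89% of all genes. The rises were Mt1, Lcn2, a siderophore-binding lipocalin, and Saa3, a serum amyloid A, and the falls were Hp and Cp. Rbp4, the retinol carrier that transthyretin holds in plasma, rose to 1038, 1132 and 1308 CPM under TTR-1236, against 842, 875 and 905 CPM under PBS (0.40 ± 0.11, adjusted p = 0.0386), and passed in 2 of the 6 leave-one-out fits. Serpina1d, a member of a family of near-identical antitrypsin genes among which reads can be shared, rose by 0.83. Of 28 coagulation genes, 21 complement genes and 22 major urinary protein genes, 1, 0 and 0 passed.

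**Figure D4:**
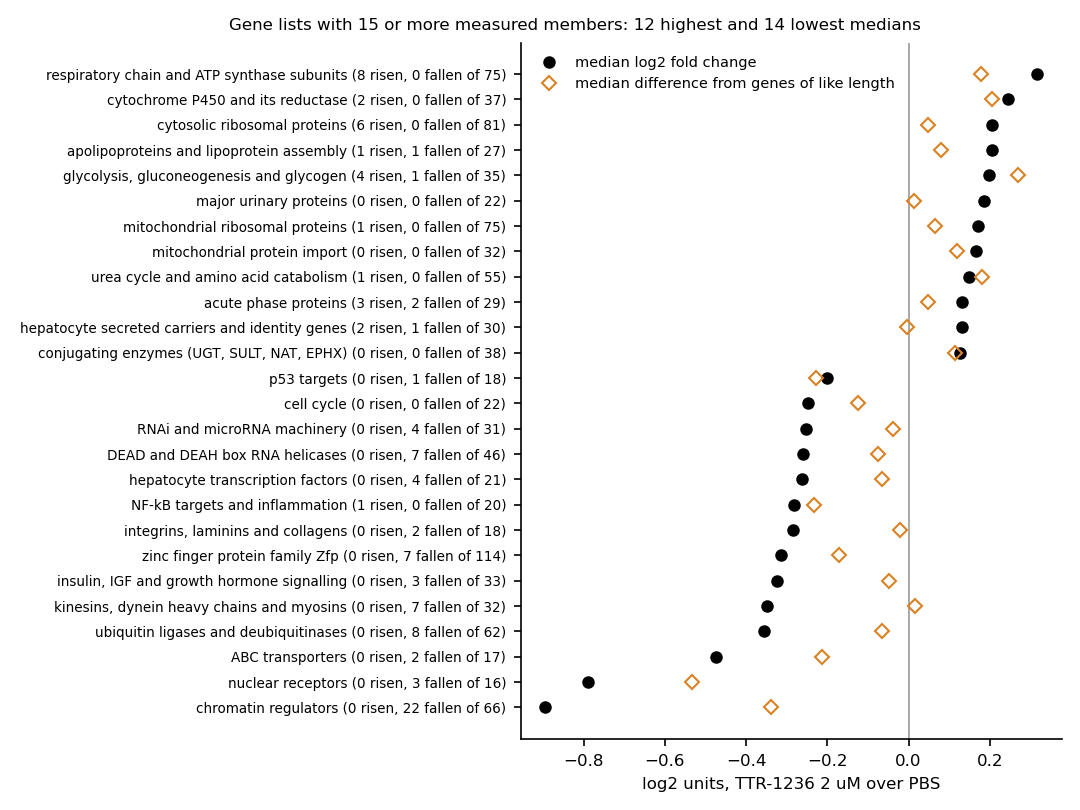
Median log2 fold change (TTR-1236 at 2 uM over PBS) of the lists with the 12 highest and 14 lowest medians among those with 15 or more measured members (black), and the median difference of the same members from protein-coding genes of like length (orange diamonds). Chromatin regulators are at -0.89 and -0.34, motors are at -0.35 and 0.02, and respiratory chain subunits are at 0.32 and 0.18.

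Of 35 subunits of RNA polymerase II, TFIID and TFIIH 3 rose (8.57%, beside 1.44% of all genes) and 0 fell, with a median of -0.07. All 3 rises were among the 15 members under 2 kb, whose median was 0.27. They were the polymerase subunits Polr2e, at 79.9, 74.0 and 88.9 CPM under TTR-1236 and 36.3, 54.0 and 65.3 CPM under PBS, and Polr2f (0.78), and the TFIIF subunit Gtf2f1 (0.61), which the list also held. Wrap53, which carries telomerase RNA to Cajal bodies, was at 16.1, 16.7 and 11.4 CPM under TTR-1236 and at 1.95, 4.19 and 8.05 CPM under PBS (1.59 ± 0.38, adjusted p = 0.0179 in limma). Among the 19 short genes that fell were Ttr, Hp, Ptma, Pet117, an assembly factor of cytochrome c oxidase, and the RNA-binding protein gene Ybx1. Pet117 was at 0.394, 0 and 2.20 CPM under TTR-1236 and at 17.2, 12.6 and 3.91 CPM under PBS, and its exons overlap those of Kat14.

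Pseudogenes were called in both directions. Of 744 pseudogenes 36 rose (4.84%) and 77 fell (10.3%), against 1.12% and 4.45% of protein-coding genes, and their median was 0.04. Of the 113 that passed, 85 are predicted genes without a name. A parent gene was measured for 180 named pseudogenes, 140 of them copies of ribosomal protein genes. Of 15 that fell with a measured parent, 0 parents fell, 8 parents were higher, and the medians were -2.37 for the pseudogenes and 0.04 for the parents. Of 9 that rose, 4 parents rose and 9 were higher, with medians of 0.86 and 0.37. Reads of pseudogene and parent can be told apart only where they differ. The 15 fallen copies were 93.1% to 100% identical to their parent transcripts and the 9 risen ones 98.1% to 100%, over aligned bases without gaps.

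Tmed10-ps (GRCm38 chromosome 13) copies Tmed10, a cargo receptor between the endoplasmic reticulum and the Golgi, and was at 0, 0.355 and 2.25 CPM under TTR-1236 and at 10.2, 16.5 and 8.28 CPM under PBS (-2.90 ± 0.44, adjusted p = 0.00164 in limma). Tmed10 itself, on chromosome 12, was at 156, 182 and 229 CPM under TTR-1236 and at 201, 180.2 and 151 CPM under PBS (0.08 ± 0.16), so that the summed mean of the pair was 190.2 CPM under TTR-1236 and 189 CPM under PBS. Hspa9-ps1, a copy of the mitochondrial chaperone gene Hspa9, was at 3.605, 1.39 and 1.40 CPM under TTR-1236 and at 73.6, 42.9 and 16.9 CPM under PBS (-3.70 ± 0.47, adjusted p = 1.88e-04), while Hspa9 differed by 0.06 ± 0.20. Morf4l1-ps1 copies a subunit of histone acetyltransferase complexes. It was at 24.7, 20.3 and 14.2 CPM under TTR-1236 and at 154, 132 and 56.3 CPM under PBS, and its parent at 113, 140.5 and 137 CPM under TTR-1236 and 238.3, 267 and 173 CPM under PBS (-0.78 ± 0.24, adjusted p = 0.0557). Rpl10-ps6 was at 799.5, 1146 and 1290.2 CPM under TTR-1236 and at 610.2, 570.0 and 571 CPM under PBS (0.86 ± 0.15, adjusted p = 0.00421), and Rpl10 at 1906, 2352 and 2328 CPM under TTR-1236 and 1494, 1446 and 1609 CPM under PBS (0.53 ± 0.12, adjusted p = 0.0177). Tmed10-ps, Hspa9-ps1 and Rpl10-ps6 passed whichever library was left out, and Morf4l1-ps1 passed in 2 of those 6 fits.

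How little separates a pseudogene from its parent is shown by 60 bases near the end of the coding sequence of each pair. They come from GENCODE M21 transcripts, with differing bases in capitals. QuantSeq reads the 3′ end, so the counted reads need not lie in these stretches. Over the whole copy Tmed10-ps differs from Tmed10 at 4 of 660 bases, Morf4l1-ps1 at 2 of 969, Hspd1-ps3 at 18 of 1722 and Rpl10-ps6 at 1 of 642.
Tmed10-ps: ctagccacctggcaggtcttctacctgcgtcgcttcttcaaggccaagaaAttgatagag
Tmed10: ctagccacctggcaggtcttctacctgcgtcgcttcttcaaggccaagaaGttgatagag
Morf4l1-ps1: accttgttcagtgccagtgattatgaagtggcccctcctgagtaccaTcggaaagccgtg
Morf4l1: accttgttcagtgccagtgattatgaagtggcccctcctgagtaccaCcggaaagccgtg
Hspd1-ps3: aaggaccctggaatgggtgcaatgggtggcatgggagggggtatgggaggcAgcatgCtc
Hspd1: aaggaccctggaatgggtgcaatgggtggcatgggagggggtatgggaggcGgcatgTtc
Rpl10-ps6 and Rpl10: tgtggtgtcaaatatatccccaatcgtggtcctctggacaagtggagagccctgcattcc
In this stretch the Tmed10 and Morf4l1 pairs each differ by 1 base and the Hspd1 pair by 2, and the Rpl10 pair is identical.

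**Figure D5:**
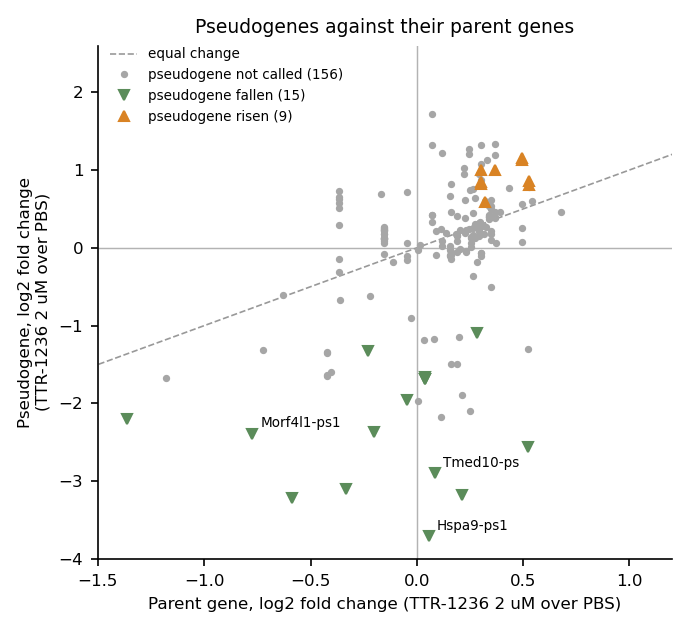
Log2 fold change (TTR-1236 at 2 uM over PBS) of 180 named pseudogenes against that of their parent genes, with a dashed line of equal change. The 15 pseudogenes that fell (green) lie far below the line with parents on both sides of 0, and the 9 that rose (orange) have parents above 0.

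Among non-coding RNAs, 5 of 282 long non-coding genes rose (1.77%) and 10 fell (3.55%), beside 1.44% and 4.89% of all genes. Bc1, a small cytoplasmic RNA transcribed by RNA polymerase III that represses translation in neurons, was at 41.8, 29.5 and 40.8 CPM under TTR-1236 and at 99.8, 122 and 92.0 CPM under PBS (-1.47 ± 0.35, adjusted p = 0.0225 in limma). Lrrc17, on another chromosome, had nearly the same values, 41.6, 29.1 and 38.8 CPM under TTR-1236 and 90.3, 117 and 87.2 CPM under PBS. Whether both count the same reads was not tested. Snhg3, a host of small nucleolar RNAs, rose at low levels to 10.8, 16.3 and 7.21 CPM under TTR-1236, against 2.23, 3.82 and 5.998 CPM under PBS. Of the mitochondrial ribosomal RNAs mt-Rnr2 fell (-2.33 ± 0.57, adjusted p = 0.0297), at 3904, 3613 and 2120.4 CPM under TTR-1236 and 25585, 22289 and 6705 CPM under PBS. The tRNA genes mt-Tl1 and mt-Tq fell by 1.18 and 0.79 on the log2 scale, and the other 19 measured mitochondrial tRNAs passed in neither direction. All 3 calls were lost in 3 or more of the 6 leave-one-out fits, and mt-Rnr2 stood at -2.94 without PBS replicate 3.

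TTR-1236 at 2 uM was also set directly against the other treated groups. Against 0.2 uM of the same agent 0 genes were higher and 13 lower (0.135%), with 1112 at an unadjusted p under 0.05 in limma. EdgeR called 0 genes there, and DESeq2 15 higher and 103 lower. Of the 13, 5 are protein-coding genes of 5 kb and over. Golga4 was at 9.21 ± 1.43 CPM at 2 uM and 39.9 ± 5.24 CPM at 0.2 uM (SD, n = 3 each), and Birc6, a giant ubiquitin ligase that inhibits apoptosis, at 11.97 ± 2.68 CPM at 2 uM and 37.7 ± 0.919 CPM at 0.2 uM. The median difference of long protein-coding genes between these doses was -0.32. Against Reference 4 at 2 uM limma called 0 genes, with 288 at an unadjusted p under 0.05, edgeR called 0 and DESeq2 1, and the median difference of long genes was -0.07. Missing the threshold is no evidence that these agents have the same effect. Against TTR-1186 at 2 uM 9 genes were higher (0.0932%) and 24 lower (0.249%), 0.342% in all, with 1526 at an unadjusted p under 0.05. EdgeR called 12 higher and 29 lower there, DESeq2 76 and 230, and leaving out 1 library gave 0 to 38 higher and 1 to 170 lower. In this contrast the median difference of long genes was -0.20. Mt1 was at 7393 ± 1101 CPM with TTR-1236 at 2 uM and 4114 ± 119 CPM with TTR-1186 at 2 uM (0.83 ± 0.15, adjusted p = 0.0121 in limma), and Ptma at 195 ± 23.8 CPM with TTR-1236 and 422 ± 79.8 CPM with TTR-1186 (-1.10 ± 0.19; SD, n = 3 each). The labels give no structure for these agents, and the comparisons with PBS share the PBS libraries, so overlaps between them are not given.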

How the data were processed

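QuantSeq 3′ RNA-seq libraries of primary mouse hepatocytes were analysed from per-library tables. The deposited values are CPM per gene, made by the authors with cutadapt 1.15, HISAT2 2.1.0 and featureCounts on mm10, per the submitters' processing notes. Those notes name no strand setting. The lowest mean over all libraries was 1.22 CPM. Dividing by the value of 1 read gave whole reads (tolerance 0.001), with 14158740 to 37410773 reads per library. Gene classes and lengths (longest spliced transcript) came from GENCODE M21, which matched 9652 of 9657 IDs.

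The main test was limma 3.58.1 (R 4.3.3) with a mean-variance trend and robust moderation on log2(CPM + 1), fitted to 7 groups of 21 libraries, with Benjamini-Hochberg adjustment over all genes at 0.05. Like-length values compare a gene with 20 equal-sized bins of protein-coding genes by length, a comparison chosen after seeing the data. Alternatives were edgeR 4.0.16 and DESeq2 1.42.0 on the recovered reads, rescaled CPM, a pseudocount of 0.5 or of 5, genes averaging at least 10 CPM, the 6 libraries alone, a replicate block and leaving out each library. In simulated data with the same groups and read totals, 46% of 2-fold and 85% of 4-fold changes were recovered among 200 changed genes of 9657, and 11 unchanged genes were called. Each gene was drawn independently there, so no library had a shift shared by many genes, as PBS replicate 3 has. These figures therefore need not hold for the real libraries. Genes were named by size and stability of change and by membership of functional lists; Birc6, Lrrc17 and genes named for an overlap were chosen after their values were seen. Comparisons and lists were chosen with earlier results of these data known. Some genes that the counts include are not reported by name here.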

Additional observations from a re-analysis of the deposited data

Results flagged for a closer look

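Some named genes differed directly between TTR-1236 at 2 uM and another treated group, by limma's adjusted p on the difference itself. Against 0.2 uM of TTR-1236 the log2 differences were -0.95 for Dync1h1, -2.03 for the bromodomain gene Baz2b, -2.24 for Resf1, -2.01 for Golga4, -1.96 for the RNA-binding gene Atxn2, -1.40 for mt-Tl1, -2.88 for Hspa9-ps1 and -2.78 for Tmed10-ps. Against TTR-1186 at 2 uM they were -1.33 for Ppp2r5b, -1.31 for Gpha2, -1.10 for Ptma, 0.83 for Mt1, -2.24 for Atxn2, -1.08 for mt-Tq, 1.75 for Selenbp2, -2.79 for Hspa9-ps1, -2.63 for Tmed10-ps and -1.97 for Bc1. Each is a difference of 2 groups of 3 libraries.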

How the results depend on the processing

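Counts of calls depended on the libraries used more than on the pseudocount, and the causes were not tested. Against PBS, 368 genes rose with DESeq2, 221 with DESeq2 size factors and 1 with the 6 libraries alone, where 21 fell. Leaving out 1 library gave 6 to 383 rises and 32 to 1205 falls. Against TTR-1236 at 0.2 uM, rises were 15 with DESeq2, 1 with size factors, 8 with 6 libraries and 1 with the replicate block, and 0 to 19 with 1 library left out. Falls there were 0 with edgeR, 103 with DESeq2, 0 with a pseudocount of 5, 4 with a minimum mean of 10 CPM, 182 with 6 libraries and 43 with the replicate block, and 0 to 78 with 1 library left out. Against Reference 4 at 2 uM, DESeq2 called 1 rise. Against TTR-1186 at 2 uM, rises were 76 with DESeq2 and 2 with 6 libraries, falls 230 with DESeq2 and 40 with the replicate block, and leaving out 1 library gave 0 to 38 rises and 1 to 170 falls.

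The median of long protein-coding genes was -0.35 with TMM factors, -0.33 with a pseudocount of 5, -0.33 by genomic span and -0.53 to -0.36 with 1 library left out. That of middle genes was -0.0054 with TMM factors and -0.15 by median transcript length. That of short genes was 0.19 with TMM factors, 0.041 by median transcript length and 0.086 to 0.15 with 1 library left out. Over all protein-coding genes it was -0.0059 with TMM factors and -0.10 to -0.046 with 1 library left out. No gene named as risen or fallen changed sign in these alternatives. The medians of 8 of 58 lists changed sign with TMM factors, all of them within 0.1 of 0: translation factors, ER translocation, proteasome, mitochondrial tRNAs, solute carriers, fatty acid oxidation, coagulation and heat shock proteins.

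Deviations of same-numbered libraries of TTR-1236 at 2 uM and PBS correlated at 0.006, 0.15 and 0.083 over genes, and those of unlike number at -0.17 to 0.064. With Reference 4 at 2 uM same-numbered libraries correlated at 0.29, 0.10 and 0.18, and those of unlike number at -0.28 to 0.16. These values do not settle whether the numbers pair the libraries, and the main test did not pair them. With the replicate block 144 genes rose and 513 fell against PBS.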
